A study of Homo sapiens with 5 samples.

Results

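RAB GTPases are small membrane-bound switches that direct traffic between compartments of the cell. Those examined here are the genes of the deposited table whose symbol is RAB followed by a number, with or without a letter from A to D, which gave 59 members among 18512 gene symbols. They were compared between 2 states of BT474, an established HER2-amplified luminal breast cancer cell line. Persister cells (3 libraries) were the cells left after 9 days in 2 µM lapatinib, a HER2 and EGFR kinase inhibitor, renewed every 3 days. The submitters describe the libraries as biological replicates. Parental cells (2 libraries) were cultured at the same time without lapatinib, and the medium of both groups held 0.01% DMSO. No group with a short exposure or with the drug withdrawn was among the samples, so effects of the drug itself and properties of the surviving cells cannot be told apart.

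A RAB bound to GTP sits on a membrane and recruits effectors, which tether, move or fuse vesicles. Exchange factors load it with GTP, GTPase-activating proteins return it to the GDP form, and the carrier proteins REP and GDI keep its lipid-modified tail soluble between membranes. Each compartment has characteristic members, so the members were grouped by the site at which they are best known to act. The groups held 12 members for ER-Golgi traffic, 12 for secretion, 7 for the early endosome, 8 for recycling and 12 for late endosome and lysosome, with 8 others. RAB4B, RAB7B and RAB43, which belong to these groups by function, were not analysed here.

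The table gives 1 FPKM value for each group (sequenced fragments relative to transcript length and sequencing depth, hence a level per length) as computed by the authors, and no value per library. No SD or n can be attached to these values, library depth is unknown, and replicate spread enters only through the q-value of the authors' own test. A member was called when that q-value was under 0.05, and the size of a difference is given as log2(FPKM + 1) of persister minus parental cells. In such bulk RNA, fewer cells of one kind and less RNA per cell cannot be told apart. Of 10 luminal epithelial markers, 9 were well above 1 FPKM in both groups, of which 6 were called lower and 3 higher. Keratins KRT7, KRT8, KRT18 and KRT19 ranged from 290 to 841 FPKM and were lower in persister cells, as were EPCAM (144 and 89.6 FPKM) and CDH1 (143 and 90.0 FPKM). GATA3 (14.1 and 43.3 FPKM), ERBB3 (35.7 and 72.7 FPKM) and ESR1 (12.4 and 18.2 FPKM) were higher. The last of the 10, ERBB2, the amplified gene, was listed at 0 in both groups and gives no check. Of 12 fibroblast, immune and endothelial markers, COL1A1 (13.4 and 8.73 FPKM) and CD68 (2.30 and 1.97 FPKM) passed 1 FPKM. Of the 5 covered by the test, 3 were called lower and 0 higher (60% lower, against 39.0% of all tested genes). These were COL1A1 and the endothelial markers CDH5 (0.592 and 0.0441 FPKM) and VWF (0.487 and 0.0884 FPKM). PTPRC, PECAM1 and CD3E were at or below 0.0145 FPKM in both groups. The summed level of the 12 was 17.0 FPKM in the parental and 10.9 FPKM in the persister group. The part of these markers in the results below was not tested.

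RAB members went both ways in persister cells, and most differences were small. On the log2(FPKM + 1) scale, RAB31 rose most and RAB1B fell most. In the authors' deposited table, 15 of the 53 members covered by the test were called higher and 20 lower in persister cells, while 18 did not pass. Among all 13617 tested genes, 69.9% were called, 30.9% higher and 39.0% lower, against 66.0% of the members, 28.3% higher and 37.7% lower, so the members' shares lie near the background. The median difference was -0.05 over the members and -0.04 over all tested genes. Relative to the median of the 10160 tested genes with at least 1 FPKM in both groups, which was -0.12, the members' median was 0.07. That of all tested genes was 0.08 on this scale, so the sign of both depends on the scaling. A difference of at least 1 was reached by 1 called member, against 9.00% of all tested genes. With a minimum difference of 0.5, 8 members were called higher and 8 lower, against 11.8% and 19.4% of all tested genes.

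**Figure D1:**
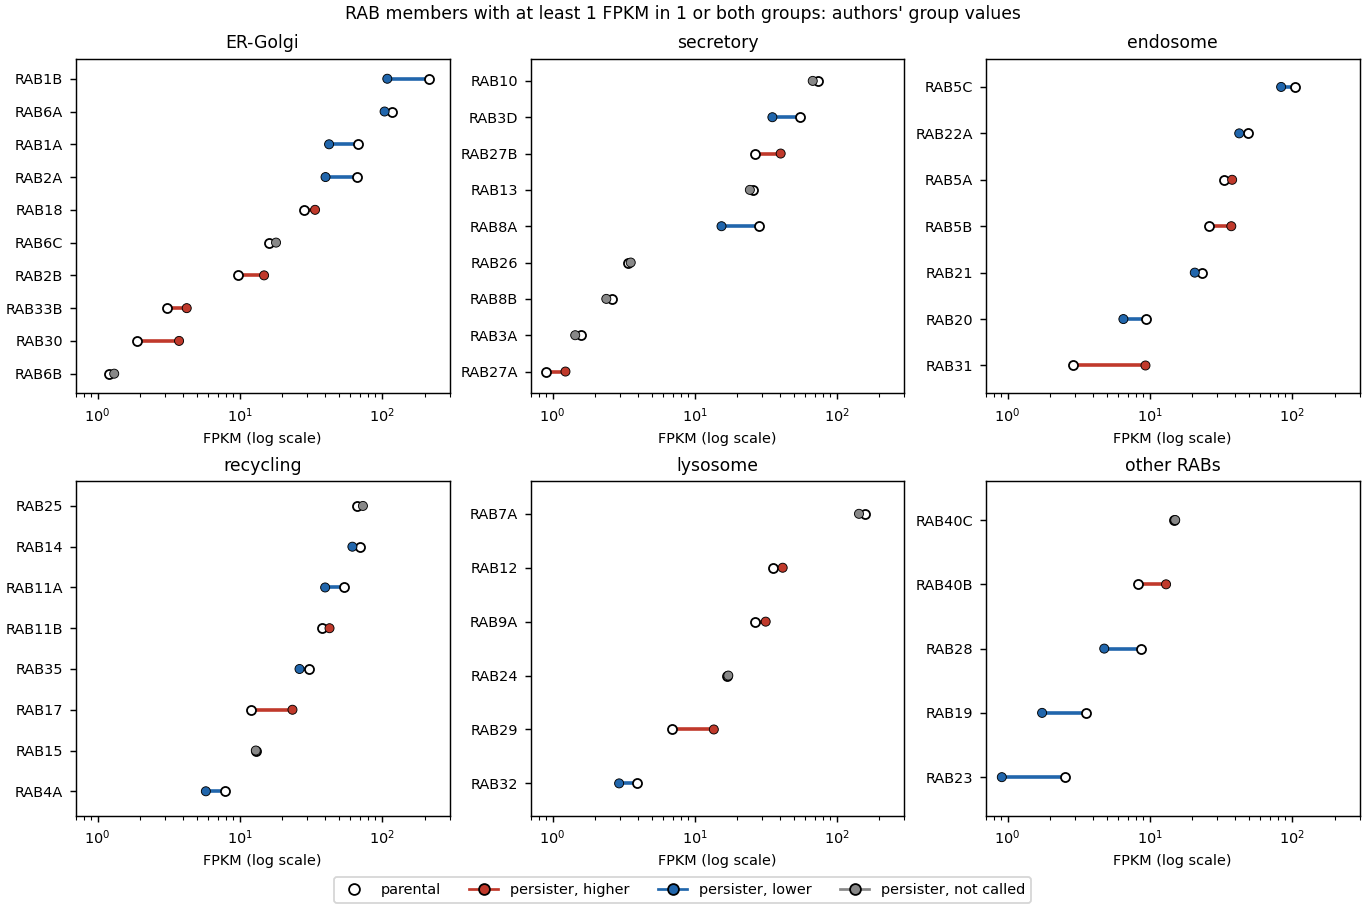
FPKM (log axis) of the 45 RAB members that reached 1 FPKM in 1 or both groups, by compartment. Open circles are parental cells, filled circles persister cells, and colour gives the call from the authors' q-value; each circle is 1 group value without error. Long lines include the rise of RAB31 (2.87 to 9.34 FPKM) and the falls of RAB1B (214 to 109 FPKM), RAB8A and RAB23.

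Abundant members mostly fell. The 10 members with the highest mean level were RAB1B, RAB7A, RAB6A, RAB5C, RAB10, RAB25, RAB14, RAB1A, RAB2A and RAB11A. Of these, 7 were called lower and 0 higher, and 3 (RAB7A, RAB10 and RAB25) did not pass. Among all tested genes 39.0% were called lower and 30.9% higher. Among those with at least 1 FPKM in 1 or both groups, the shares were 44.2% and 28.8%. The shares among genes of like level were not computed. The median of the mean FPKM was 25.3 for members called lower and 17.8 for members called higher. Over all genes the corresponding medians were 12.9 and 3.93 FPKM, so a difference in level between falling and rising genes was present outside the family as well. Summed over the 59 members, the level was 1574 FPKM in the parental and 1379 FPKM in the persister group, a change of -12.4%, while the sum over all genes changed by -22.0%.

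RAB31 and RAB1B mark the ends of the range of log2(FPKM + 1) differences. RAB5B and RAB5C are paralogs that moved apart, a pair picked after the values were seen. The 250 bases before the annotated start of these 4 genes are shown for that reason. They are from RefSeq on GRCh38.p14, 5′ to 3′ on the strand of the gene. Paralogs of the RAB2 and RAB11 families also moved apart and are not shown. The stretches lie at chr18:9708051-9708300, plus strand (RAB31), chr11:66268389-66268638, plus strand (RAB1B), chr12:55973699-55973948, plus strand (RAB5B) and chr17:42154990-42155239, minus strand (RAB5C). Capitals mark matches to CACGTG, the core bound by TFEB and related factors of lysosomal genes, or TGANTCA, the AP-1 core.
RAB31: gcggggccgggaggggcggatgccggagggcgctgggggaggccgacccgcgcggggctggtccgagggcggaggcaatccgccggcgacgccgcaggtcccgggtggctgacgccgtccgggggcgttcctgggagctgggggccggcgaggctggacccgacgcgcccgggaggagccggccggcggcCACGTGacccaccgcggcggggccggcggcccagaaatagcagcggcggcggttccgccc
RAB1B: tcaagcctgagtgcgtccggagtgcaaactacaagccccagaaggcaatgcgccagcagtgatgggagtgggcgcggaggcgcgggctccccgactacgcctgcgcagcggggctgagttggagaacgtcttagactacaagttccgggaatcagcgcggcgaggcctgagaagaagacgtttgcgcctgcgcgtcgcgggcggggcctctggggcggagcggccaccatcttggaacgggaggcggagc
RAB5B: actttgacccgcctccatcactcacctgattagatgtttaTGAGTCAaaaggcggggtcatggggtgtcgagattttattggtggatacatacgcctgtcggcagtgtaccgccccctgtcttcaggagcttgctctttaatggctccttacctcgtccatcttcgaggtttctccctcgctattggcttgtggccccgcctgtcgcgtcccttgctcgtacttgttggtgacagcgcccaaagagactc
RAB5C: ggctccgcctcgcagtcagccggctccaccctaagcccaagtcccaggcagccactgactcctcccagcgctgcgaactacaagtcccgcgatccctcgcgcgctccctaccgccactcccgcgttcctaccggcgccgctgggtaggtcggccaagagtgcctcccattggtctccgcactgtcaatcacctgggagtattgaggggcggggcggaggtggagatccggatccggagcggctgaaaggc
The RAB31 stretch holds 1 CACGTG, whose first base is 60 bases before the start, and the RAB5B stretch holds 1 TGANTCA, 210 bases before it. The FOXO core GTAAACA, searched likewise on both strands, was in none of the 4, and no motif is contained in another. Such a stretch was available for 46 members. For 29 of the 46, the bases after its annotated start matched the beginning of a reference transcript matched to that member. For the others, the start of the measured transcript may lie elsewhere. Over the 46, 5 held CACGTG (10.9%, against 6.49% of 27305 stretches in all), 2 held TGANTCA (4.35% against 6.60%) and 0 held GTAAACA (against 2.98%). CACGTG stood before 2 of 13 members called higher and 2 of 15 called lower, and TGANTCA before 1 and 0. The stretches were rich in G and C, with a median of 64.8% against 58.0% overall.

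In the ER-Golgi group, the abundant members fell and members of lower level rose. RAB1A and RAB1B, which tether vesicles leaving the endoplasmic reticulum, were both lower. RAB1B fell from 214 to 109 FPKM (difference -0.96), the largest fall of the family on this scale, with 0.512 of the parental level left. RAB1A fell from 67.8 to 42.6 FPKM (-0.66). RAB2A, which acts between the ER and the Golgi, fell from 66.5 to 40.2 FPKM (-0.71). For all 3 the authors' deposited table gives a q-value of 0. Their summed level was 348 FPKM in the parental and 192 FPKM in the persister group, a set picked after its values were seen. RAB6A, the main RAB of retrograde transport through the Golgi, fell less, from 118 to 105 FPKM (the authors' deposited table, q = 0.0375).

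The other called ER-Golgi members went up. RAB30, a Golgi protein, rose from 1.90 to 3.75 FPKM (difference 0.71, the authors' deposited table, q = 1.22e-12). RAB2B rose from 9.78 to 14.9 FPKM (0.56, the authors' deposited table, q = 2.70e-09), opposite to its paralog RAB2A. RAB33B, a Golgi RAB that binds the autophagy protein ATG16L1, rose from 3.09 to 4.24 FPKM. RAB18, found on the ER and on lipid droplets, rose from 28.3 to 33.9 FPKM. RAB6B was listed at 1.21 and 1.31 FPKM and RAB6C at 16.0 and 18.0 FPKM, and neither passed. RAB6C is a copy of RAB6A: 55.8% of its 50-base stretches and 20.1% of those of RAB6A also occur in transcripts of other genes of the reference annotation, so the division of reads among them is uncertain. The group thus held 4 higher and 4 lower of 11 tested (36.4% each, against 30.9% and 39.0% of all tested genes), with a median of 0.07, while its summed level was 526 FPKM in the parental and 373 FPKM in the persister group, or 33.4% and 27.1% of the RAB total. The summed level of the other members was 1048 and 1006 FPKM. The ER-Golgi sum thus changed by -29.0%, where the sum over all genes changed by -22.0%.

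Among the secretory members, most did not pass the test and the changes were concentrated in RAB8A, RAB3D and RAB27B. RAB8A, which carries Golgi-derived vesicles to the plasma membrane and the cilium, fell from 28.3 to 15.5 FPKM (difference -0.83). RAB3D, a RAB of secretory granules in gland cells, fell from 55.5 to 35.3 FPKM (-0.64). RAB27B, which acts in granule docking and exosome release, rose from 26.6 to 40.3 FPKM (0.58). Each of the 3 has a q-value of 0 in the authors' deposited table. The related RAB27A rose at a low level, from 0.899 to 1.23 FPKM. RAB10, the most abundant secretory member, was listed at 74.3 and 67.8 FPKM and did not pass. Nor did RAB13, a RAB of epithelial junctions, at 25.7 and 24.5 FPKM. Of the RAB13 stretches of 50 bases, 41.1% also occur in other genes. RAB26 (3.42 and 3.55 FPKM), RAB8B (2.63 and 2.39 FPKM) and RAB3A (1.59 and 1.44 FPKM) did not pass either. In all, 2 were higher and 2 lower of 11 tested (median -0.07), and 63.6% were not called, against 30.1% of all tested genes. Several of those not called were at low levels, with RAB3B and RAB37 under 1 FPKM in both groups. With so few genes, nothing is read from this share.

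The 7 early endosome members were all called, 3 higher and 4 lower (median -0.16), where 69.9% of all tested genes were called; with so few genes nothing is read from the count. RAB31, which works between the trans-Golgi network and endosomes and has been linked to EGFR traffic, rose from 2.87 to 9.34 FPKM (difference 1.42, the authors' deposited table, q given as 0), which is 3.25 times the parental level. RAB5B rose from 26.0 to 37.5 FPKM (0.51, the authors' deposited table, q = 3.12e-13) and RAB5A from 33.1 to 38.0 FPKM. RAB5C, the most abundant of these regulators of early endosome fusion, fell from 106 to 84.1 FPKM. Of the RAB5C stretches of 50 bases, 37.0% also occur in another annotated gene. RAB20 fell from 9.48 to 6.53 FPKM, and RAB22A, which acts in endosomal sorting, from 49.1 to 42.7 FPKM. RAB21, known for integrin traffic, fell from 23.4 to 20.8 FPKM, close to the threshold (the authors' deposited table, q = 0.0497).

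In the recycling group, 2 members were higher and 4 lower of 8 tested (25% and 50%, against 30.9% and 39.0% of all tested genes; median -0.09). RAB17, an epithelial RAB of apical recycling and transcytosis, rose from 12.1 to 23.5 FPKM (difference 0.91, the authors' deposited table, q given as 0). RAB11B rose slightly, from 38.0 to 42.9 FPKM, while its paralog RAB11A, the best known RAB of the recycling endosome, fell from 54.3 to 40.0 FPKM. RAB4A, of the fast recycling route, fell from 7.88 to 5.78 FPKM. RAB14 fell from 70.1 to 62.1 FPKM and RAB35, which acts on return from endosomes to the plasma membrane, from 30.7 to 26.4 FPKM. RAB25, the epithelial relative of RAB11, was listed at 66.6 and 73.7 FPKM and RAB15 at 13.1 and 13.0 FPKM, and neither passed.

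Late endosome and lysosome members held their summed level, at 249 FPKM in the parental and 251 FPKM in the persister group. These sums were 15.8% and 18.2% of the RAB total, while the sum over all genes changed by -22.0%. RAB7A, which drives fusion with the lysosome and was the most abundant of them, was listed at 158 and 143 FPKM and did not pass (the authors' deposited table, q = 0.0518). RAB29, a RAB of the trans-Golgi network and stressed lysosomes that recruits the kinase LRRK2, rose from 6.98 to 13.7 FPKM (difference 0.88, the authors' deposited table, q given as 0). RAB9A, of transport from late endosomes to the Golgi, rose from 26.7 to 31.6 FPKM and RAB12, of transport to lysosomes, from 35.5 to 41.7 FPKM. RAB32, a RAB of lysosome-related organelles, fell from 3.96 to 2.94 FPKM. RAB24, linked to autophagy, was listed at 17.0 and 17.3 FPKM, and 66.5% of its 50-base stretches also occur in other genes, mostly its neighbour MXD3. Of 10 tested, 3 were called higher and 3 lower (30% each, against 30.9% and 39.0% of all tested genes; median -0.02). Relative to the median of tested genes with at least 1 FPKM in both groups, the calls were 5 and 1. This came from RAB36 (0.0893 and 0.0425 FPKM) and RAB38 (0.0907 and 0.0208 FPKM). Both were called lower at levels where the log2(FPKM + 1) scale shows almost no difference.

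**Figure D2:**
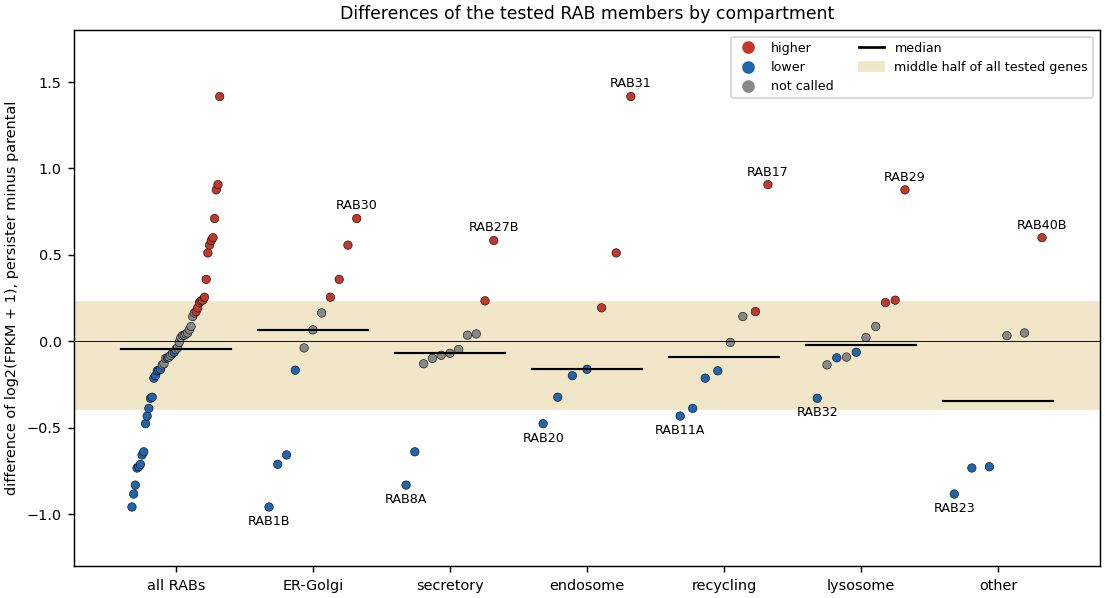
Difference of log2(FPKM + 1), persister minus parental, for the 53 tested RAB members, all together and by compartment. Points are genes coloured by the call, black lines are medians, and the band is the middle 50% of all tested genes (-0.39 to 0.23). RAB31 stands above 1 alone, and every compartment holds points on both sides of 0.

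Of the members outside these compartments, 3 were lower and 1 higher of 6 tested (50% and 16.7%, against 39.0% and 30.9% of all tested genes; median -0.35). RAB23, a negative regulator of Hedgehog signalling, fell from 2.53 to 0.910 FPKM, to 0.361 of the parental level (difference -0.88, the authors' deposited table, q = 6.92e-15). RAB28, a ciliary RAB, fell from 8.62 to 4.79 FPKM (-0.73, the authors' deposited table, q = 6.88e-08). RAB19 fell from 3.55 to 1.75 FPKM (-0.73, the authors' deposited table, q = 2.58e-10). RAB40B, which carries a SOCS box that recruits a ubiquitin ligase, rose from 8.27 to 13.0 FPKM (0.60, the authors' deposited table, q = 1.34e-10), while RAB40C was listed at 14.8 and 15.1 FPKM.

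The remaining 14 members stayed under 1 FPKM in both groups. Of these, 8 were tested, with RAB36 and RAB38 called lower and RAB3B, RAB9B, RAB34, RAB37, RAB41 and RAB42 not called. The other 6, RAB3C, RAB33A, RAB39A, RAB39B, RAB40A and RAB44, were at or below 0.0554 FPKM and not covered by the test. Together these 14 held 0.0863% of the RAB total in parental cells.

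Libraries did not keep strand, so reads from an overlapping gene on the other strand could add to a member. In the reference annotation, exons of 24 members overlap a gene on the opposite strand, and for 9 of these the other gene is in the table. In 5 of the 9 pairs the other gene had the higher level in both groups. RAB19 overlaps SLC37A3, which was itself lower (18.0 and 11.5 FPKM), and RAB2B overlaps TOX4, which was higher (24.9 and 30.6 FPKM). RAB6B and RAB3A, which did not pass, overlap SRPRB (30.6 and 16.5 FPKM) and MPV17L2 (8.57 and 4.24 FPKM), both lower. RAB27A overlaps PIGB (1.81 and 2.04 FPKM), which did not pass. RAB1A overlaps CEP68, which went the other way at a low level (2.61 and 6.86 FPKM), as did BAG2 (1.03 and 1.85 FPKM) opposite RAB23. CCDC159 (13.4 and 12.5 FPKM) opposite RAB3D and PP2D1 (0.332 and 0.412 FPKM) opposite RAB5A did not pass. The part of these neighbours in the members' values was not tested. Transcript length also differed between the calls: the median of the longest matched transcript was 3459 bases for members called higher, 2956 for those called lower and 2474 for those not called.

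Families were taken as members that share a number. Paralogs so defined shifted against each other in the RAB2, RAB5 and RAB11 families. In each, the paralog most abundant in parental cells fell and 1 or more others rose. RAB25, the relative of RAB11 with another number, was not counted in the RAB11 family, although its level (66.6 and 73.7 FPKM) exceeded that of RAB11A. These are shares of the family's summed FPKM, a description with no test of the shift. RAB2A went from 87.2% of its family in parental to 73.0% in persister cells, with RAB2B taking up the rest. RAB5C went from 64.1% to 52.7%, RAB5B from 15.8% to 23.5% and RAB5A from 20.1% to 23.8%, while the summed RAB5 level was 165 and 160 FPKM. RAB11A went from 58.8% to 48.2%, so that RAB11B held the larger share in persister cells. Elsewhere the shares moved less or without opposite calls. RAB1B held 75.9% and 72.0% of a RAB1 level that was 281 and 152 FPKM, RAB8A held 91.5% and 86.6% of the RAB8 level, and RAB3D and RAB27B each held over 95% of theirs in both groups. RAB40B went from 35.8% to 46.2% of its family.

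**Figure D3:**
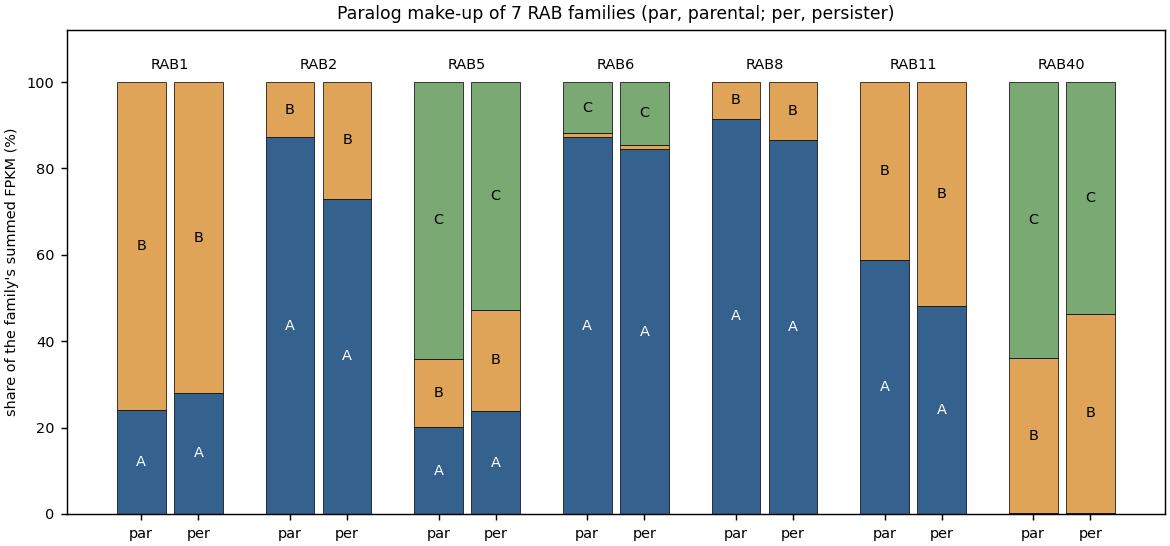
Share of each paralog in the summed FPKM of its family (%), for 7 families in parental (par) and persister (per) cells. Letters name the paralogs. Families are members that share a number, so RAB25 is not part of RAB11. The largest shifts were in RAB2 (A from 87.2% to 73.0%), RAB5 (C from 64.1% to 52.7%) and RAB11 (A from 58.8% to 48.2%).

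The genes that act on RABs were counted next. Of 17 genes for prenylation and membrane cycling, 10 were called lower and 1 higher (58.8% and 5.88%, against 39.0% and 30.9% of all tested genes), with a median of -0.26 against -0.04 over all tested genes. YIF1A, an ER-Golgi membrane protein, fell from 77.3 to 36.2 FPKM, its relative YIPF1 from 24.7 to 13.1 FPKM, and RABAC1, which encodes the prenylated RAB acceptor, from 122 to 73.7 FPKM. GDI2 and RABGGTB, named after their values were seen, encode a GDI and the catalytic subunit of the RAB prenyltransferase, and fell from 93.3 to 60.2 and from 53.9 to 35.4 FPKM. CHM, which encodes a REP, rose from 2.72 to 3.93 FPKM. On the same list, RABGGTA (14.9 and 13.3 FPKM) and CHML (7.23 and 7.03 FPKM) did not pass. Of the genes for prenylation itself (RABGGTA, RABGGTB, CHM and CHML), only RABGGTB was thus called lower. The other lower calls on the list were for genes of membrane cycling.

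Exchange factors were split evenly, with 11 higher and 11 lower of 37 tested (29.7% each, where all tested genes gave 30.9% and 39.0%; median 0.04). DENND3, an exchange factor for RAB12, rose from 0.684 to 1.90 FPKM, HPS1, of the complex that activates RAB32 and RAB38, from 17.3 to 29.9 FPKM and ANKRD27, which acts on RAB21, from 11.9 to 19.7 FPKM. Of the RAB7 exchange factor's subunits, MON1A was lower (3.93 and 2.04 FPKM), as was CCZ1 (57.9 and 37.3 FPKM); the paralog MON1B was not analysed here. DENND2D fell from 5.87 to 3.10 FPKM. The list held 10 genes for subunits of TRAPP, the complex that activates RAB1, and not every subunit. Of these 10, grouped after their values were seen, 5 were lower and 2 higher (50% and 20%, against 39.0% and 30.9% of all tested genes).

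GTPase-activating proteins were called higher in 13 and lower in 10 of 31 (41.9% and 32.3%, against 30.9% and 39.0% of all tested genes; median -0.02). TBC1D9 rose from 7.68 to 15.5 FPKM, TBC1D17 from 12.4 to 23.7 FPKM and RABGAP1L from 7.65 to 13.1 FPKM. TBC1D7, better known as a subunit of the TSC complex, fell from 12.8 to 7.13 FPKM, TBC1D30 from 11.2 to 6.82 FPKM and USP6NL, which acts on RAB5, from 7.04 to 4.41 FPKM.

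Effectors and tethers were called higher in 26 and lower in 16 of 60 (43.3% and 26.7%, against 30.9% and 39.0% of all tested genes; median 0.05). OPTN, an autophagy receptor and RAB8 effector, rose from 1.13 to 5.32 FPKM while RAB8A fell. RILPL2, of the RILP family, rose from 2.53 to 7.10 FPKM and OSBPL1A, a RAB7 effector on late endosomes, from 8.23 to 15.7 FPKM. PLIN3 fell from 20.8 to 11.7 FPKM, EXOC6 from 9.55 to 5.49 FPKM and RPH3AL, an effector of RAB3 and RAB27, from 5.77 to 3.37 FPKM. Of the 9 exocyst genes, which encode the tether used by RAB8 and RAB11, 6 were higher and 3 lower, and of 6 genes for the HOPS and CORVET tethers of RAB7 and RAB5, 3 were higher and 1 lower. In these small groupings, chosen after their values were seen, 66.7% and 50% were thus higher, where 30.9% of all tested genes were, and nothing is read from the difference. RAB11FIP4, an effector of RAB11 named after its value was seen, had the largest difference of all these genes, 21.9 and 91.1 FPKM, but did not pass (the authors' deposited table, q = 0.615).

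**Figure D4:**
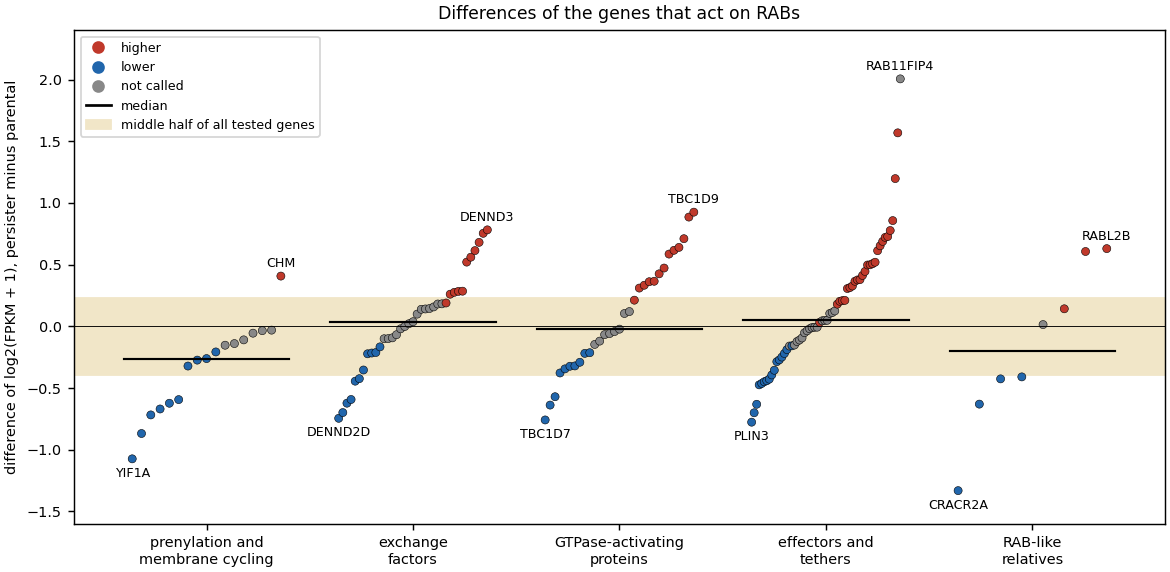
Difference of log2(FPKM + 1), persister minus parental, for tested genes that act on RABs and for RAB-like relatives. Points are genes coloured by the call, black lines are medians, and the band is the middle 50% of all tested genes (-0.39 to 0.23). RAB11FIP4 is highest at 2.01 but not called, and the prenylation and membrane cycling group has 1 point above 0.

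Relatives of the family that the naming rule leaves out also went both ways, with 3 higher and 4 lower of 8 tested (37.5% and 50%, against 30.9% and 39.0% of all tested genes). CRACR2A, a large RAB with calcium-binding domains, fell from 9.45 to 3.15 FPKM, IFT22, a ciliary RAB-like protein, from 7.99 to 4.81 FPKM and RABL6 from 59.5 to 44.0 FPKM. The near-identical RABL2A (2.30 and 4.03 FPKM) and RABL2B (3.47 and 5.92 FPKM) were both called higher, with reads that cannot be assigned with certainty, and RAB40AL was listed at 0.106 and 0.221 FPKM.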

How the data were processed

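Polyadenylated RNA of 5 BT474 cultures was sequenced from libraries that did not keep strand, per the labels' protocols. Per the submitters' processing notes, the tools were Cuffdiff 2.0.2 and Cufflinks, with TopHat2 2.0.6 on the build hg18 and CASAVA 1.8, but no settings. The authors deposited 1 FPKM value per gene and group and a q-value, whose adjustment is not stated. Counts and library values are not in this table, so depth is unknown and the planned limma test on libraries could not be made. The stated fallback was used: a q-value under 0.05 among genes with a q-value below 1. A q-value is listed as 0 in 2712 of 18803 rows. For 269 symbols on several rows the row of highest mean FPKM was kept, and no member was affected. Differences are log2(FPKM + 1), computed with pandas 2.3.3 and tested on simulated data. The pseudocount understates changes of low genes.

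The members and lists were chosen with earlier results of these data known. Named genes were all members reaching 1 FPKM and, of each list of genes acting on RABs, the 3 that rose most and the 3 that fell most among those called. Others are said to be chosen after their values were seen, as were the exocyst, TRAPP, HOPS and CORVET groupings. Shared sequence was measured as 50-base stretches of the transcripts matched in GENCODE 29 that occur in other genes. Upstream stretches came from RefSeq, on a build other than the authors'. Protein sequences were not used here.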

Additional observations from a re-analysis of the deposited data

How the results depend on the processing

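No paired analysis was possible because the table holds 1 value per group, and for the same reason libraries could not be left out in turn, so neither was done. Among settings chosen after seeing the data, dropping the 6 members that share sequence left 15 calls higher and 18 lower. Leaving out the 24 members with exons opposite another gene left 6 higher and 10 lower, against 15 and 20 with all members. Many called members thus have such an overlap, as do 24 of all 59 members. The share over all genes was not computed, and the part of the overlap in the calls was not tested. A minimum difference of 0.5 left 8 and 8 over all members. By group it left 2 higher and 3 lower in ER-Golgi, 1 and 2 in the secretory and 2 and 0 in the endosome group. It left 1 and 0 in the recycling group and in the lysosome group, and 1 and 3 in the others. Of genes acting on RABs it left 0 higher and 6 lower in prenylation and membrane cycling, and 6 and 4 in exchange factors. It left 6 and 3 in GTPase-activating proteins, 11 and 3 in effectors, and 2 and 2 in relatives. With a q-value under 0.01, 12 members stayed higher and 16 lower. Lower exchange factors went from 11 to 7 and higher recycling members from 2 to 1. With at least 1 FPKM, 1 lysosome member stayed lower.

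Centring on the median of the 10160 tested genes with at least 1 FPKM in both groups (-0.12) shifts every difference by the same amount. The median over all tested genes then moved from -0.04 to 0.08, so its sign was reversed as well. Medians then were 0.069 over all members, 0.18 in ER-Golgi, 0.046 in the secretory, -0.047 in the endosome, 0.027 in the recycling and 0.095 in the lysosome group, where calls became 5 higher and 1 lower, and -0.23 in the others. For genes acting on RABs they were -0.15 in prenylation and membrane cycling and 0.15 in exchange factors. In GTPase-activating proteins the median was 0.093, in effectors 0.16 and in relatives -0.082. The signs of the medians over all members and over the secretory, recycling, lysosome and GTPase-activating groups were thus reversed. Counting untested members gave a median of 0.0055 over all members. Moving RAB34, RAB36 and the RAB39 genes to ER-Golgi gave medians of -0.038 there and 0.054 in the lysosome group. RAB9A lost share within its family, although its log2 difference exceeded that of RAB9B by 0.15. Pseudocounts of 0.1 and 0.01 reversed no difference of a called member that reached 1 FPKM and moved no group median by 0.1 or more.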
